A study of Mus musculus with 4 samples.

Results

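The nuclear genes of oxidative phosphorylation (OXPHOS) were taken by symbol from the protein-coding genes of mouse build GRCm38: symbols starting with *Nduf* (complex I), *Sdh* followed by a to d (complex II), *Uqcr* (complex III), *Cox4* to *Cox8* (complex IV), or *Atp5* (complex V). The rule gave 100 of 21883 nuclear protein-coding genes, on 19 chromosomes. Complex I had 49 of them, complex II 8, complex III 8, complex IV 18, and complex V 17. Subunits made up 87 genes and assembly factors 12, and the remaining gene was *Cox7a2l*, which encodes a supercomplex assembly factor. Roles were assigned by symbol, so the paralogs *Ndufa4l2*, *Ndufb4b*, and *Ndufb4c* count as subunits.

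The data were H3K27ac ChIP-Seq peaks of 2 libraries of isolated mouse liver sinusoidal endothelial cells (LSECs), replicates 2 and 3. Their labels name no condition that sets them apart, so treatments could not be compared. The paper's methods describe isolation of LSECs by perfusion and anti-CD146 beads and a tagmentation-based library, whereas the sample labels describe sonication and a ligation-based kit. The labels give neither genotype, treatment, nor age of the mice, and nothing says whether the libraries came from separate animals. The methods list mice with a floxed *Col4a1* allele, with or without *Cdh5* CreERT2, an endothelial driver, and dCas9-KRAB *Cdh5* CreERT2 mice, but do not say which mice, if any of these, gave the libraries.

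Oxidative phosphorylation passes electrons from NADH (complex I) and succinate (complex II) through ubiquinone to complex III, cytochrome c, and complex IV, where oxygen is reduced. The protons pumped on the way drive ATP synthesis by complex V. Apart from 13 subunits encoded by mitochondrial DNA, which were left out here, the subunits come from the nucleus, and several subunits of complex IV have paralogs expressed mainly in muscle, testis, or hypoxic tissue. H3K27ac, acetylation of histone H3 at lysine 27, marks active promoters and enhancers.

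The peak lists held 26975 peaks for replicate 2 and 64498 for replicate 3, and 99.2% of the former overlapped a peak of the latter, against 37.7% the other way. Their median fold enrichments, the ratio over background that the peak caller assigned, were 9.76 and 8.89. The number of reads behind either list is unknown, so no enrichment can be given an error from counts, and values are given for each library. Of 17 LSEC markers, 12 had a peak of each library, overlapping, no more than 1 kb from an end of the gene, and *Stab2*, *Clec4g*, *Tek*, and *Mrc1* had a replicate 3 peak only, and *Emcn* had none. The same count was 1 of 13 for hepatocyte markers (*Trf*), 0 of 10 for hepatic stellate cell markers, 2 of 11 for Kupffer cell markers (*Cd68* and *Spi1*), 0 of 7 for cholangiocyte markers, and 1 of 7 for lymphocyte markers (*Cd79a*). The share was 43.4% over all nuclear protein-coding genes. Among these other markers, a replicate 3 peak only was seen at *Col1a1* (fold enrichment 12.0), *Acta2* (5.61), *Cd4* (11.8), *Apoa1* and *Apob* (11.4 each), and *Epcam* (5.86). The 4 such LSEC markers ranged from 4.15 to 10.0. In replicate 3, *Trf* had 78.8 and *Spi1* 52.1, beside 60.3 at *Kdr*, the highest of the LSEC markers. OXPHOS genes are active in every one of these cell types, and the part other cells had in the peaks described here was not tested.

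Promoters of OXPHOS genes are known to carry sites for nuclear respiratory factor 1 (NRF1), ETS factors such as GABPA, YY1, Sp1, CREB, and NF-Y. RefSeq promoter sequences of GRCm38.p6 were at hand for 82 of the 100 genes. The following are the 250 bases before the listed start, 5′ to 3′ on the gene's own strand, of 3 genes with the NRF1 letters (*Cox6a1*, *Sdhb*, and *Atp5g2*) and of widely and narrowly expressed complex IV paralogs (*Cox8a* beside *Cox8b* and *Cox7b2*). Capitals mark the core letters searched, on either strand: GCATGCG for NRF1, CCGGAAG for ETS factors, AAGATGG for YY1, GGGCGG for Sp1, TGACGT for CREB, and CCAAT for NF-Y.
Cox6a1 (chr5:115348959-115349208, minus strand): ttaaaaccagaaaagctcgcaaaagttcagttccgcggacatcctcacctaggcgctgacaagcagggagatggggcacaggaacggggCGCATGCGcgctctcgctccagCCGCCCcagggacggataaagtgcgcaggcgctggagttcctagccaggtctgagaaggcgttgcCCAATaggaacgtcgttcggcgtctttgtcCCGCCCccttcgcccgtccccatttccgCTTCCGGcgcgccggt
Sdhb (chr4:140961021-140961270, plus strand): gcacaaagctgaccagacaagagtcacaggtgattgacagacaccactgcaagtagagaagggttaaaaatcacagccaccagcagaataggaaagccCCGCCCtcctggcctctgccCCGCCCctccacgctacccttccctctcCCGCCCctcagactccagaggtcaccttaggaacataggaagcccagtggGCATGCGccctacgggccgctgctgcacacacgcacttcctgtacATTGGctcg
Atp5g2 (chr15:102671048-102671297, minus strand): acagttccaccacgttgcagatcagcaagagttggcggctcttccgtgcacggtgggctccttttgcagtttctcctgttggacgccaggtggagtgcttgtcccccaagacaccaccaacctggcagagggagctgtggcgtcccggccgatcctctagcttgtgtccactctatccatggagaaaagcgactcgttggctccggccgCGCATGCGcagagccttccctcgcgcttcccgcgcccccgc
Cox8a (chr19:7217617-7217866, minus strand): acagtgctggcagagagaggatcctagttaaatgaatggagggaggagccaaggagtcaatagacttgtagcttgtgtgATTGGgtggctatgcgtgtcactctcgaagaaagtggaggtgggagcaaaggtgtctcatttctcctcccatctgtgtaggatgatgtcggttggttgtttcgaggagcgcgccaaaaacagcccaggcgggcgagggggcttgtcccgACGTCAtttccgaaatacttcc
Cox8b (chr7:140900447-140900696, minus strand): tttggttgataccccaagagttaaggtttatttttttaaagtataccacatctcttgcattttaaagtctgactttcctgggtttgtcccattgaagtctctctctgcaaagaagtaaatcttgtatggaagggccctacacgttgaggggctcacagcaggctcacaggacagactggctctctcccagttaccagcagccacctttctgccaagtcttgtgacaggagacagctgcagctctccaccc
Cox7b2 (chr5:71548206-71548455, minus strand): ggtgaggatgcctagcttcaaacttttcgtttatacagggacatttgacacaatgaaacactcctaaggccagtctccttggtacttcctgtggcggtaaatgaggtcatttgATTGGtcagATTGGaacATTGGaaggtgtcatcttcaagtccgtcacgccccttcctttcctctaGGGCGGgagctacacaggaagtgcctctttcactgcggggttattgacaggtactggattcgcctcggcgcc
*Cox6a1* held the cores for NRF1, ETS factors, Sp1, and NF-Y. *Cox8b* held none of the 6 cores in these 250 bases, and *Cox7b2* held those for NF-Y and Sp1 only. A run of letters is a description of the sequence and does not show that a factor was bound.

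A peak of replicate 2 lay within 1 kb of an end of 81 OXPHOS genes, and a peak of replicate 3 within 1 kb of an end of 90 genes. All 81 genes had peaks of both libraries that overlapped by at least 1 bp (81.0%, 95% Wilson interval over genes 72.2% to 87.5%). Where the overlap had to reach 50% of each peak, the share was 44 of 100, beside 21.9% of other genes. Of all nuclear protein-coding genes, 43.4% had such a pair of peaks, 43.4% had a replicate 2 peak, and 53.9% had a replicate 3 peak. The share of OXPHOS genes was thus well above the background. It was of the order of the shares of mitochondrial ribosomal protein genes (68 of 78, 87.2%) and proteasome genes (35 of 39, 89.7%), and below that of cytosolic ribosomal protein genes (73 of 76, 96.1%). These groups were not tested against each other, since genes are not replicates. A replicate 3 peak alone was seen at 9 OXPHOS genes, and no peak at 10. Where a replicate 3 peak was present, 90% of OXPHOS genes and 80.4% of other genes also had the overlapping replicate 2 peak.

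**Figure D1:**
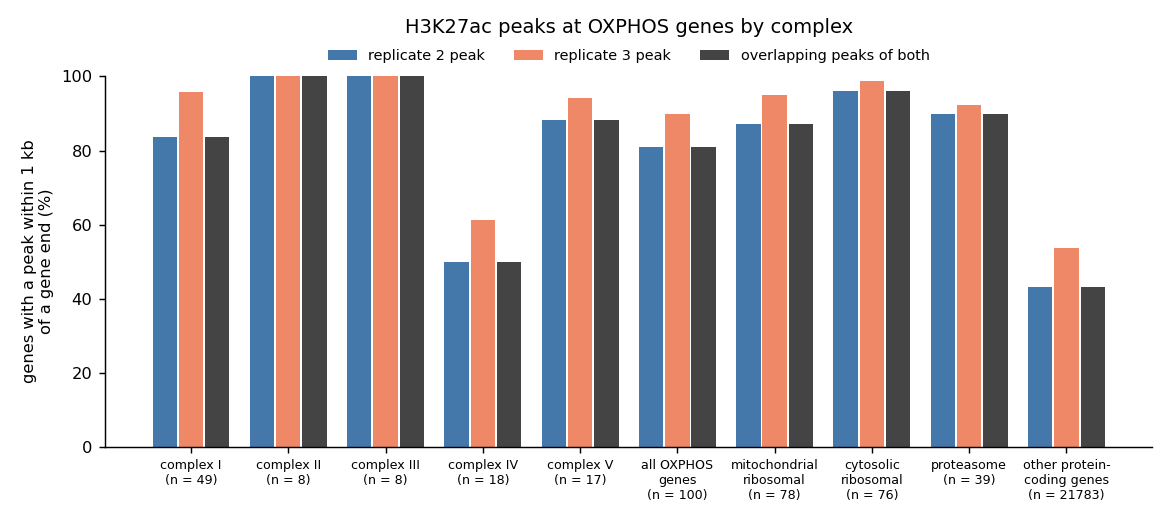
Share of genes (%) with an H3K27ac peak within 1 kb of a gene end, for each complex, all 100 OXPHOS genes, 3 other gene groups, and the other protein-coding genes. Blue bars are replicate 2, orange bars replicate 3, and dark bars overlapping peaks of both. Complexes II and III reach 100%, and complex IV, at 50%, lies closest to the other genes at 43.2%.

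Peaks of both libraries were present at 41 of 49 complex I genes (83.7%, interval 71.0% to 91.5%), all 8 complex II genes, all 8 complex III genes, and 15 of 17 complex V genes (88.2%, interval 65.7% to 96.7%). Complex IV stood lowest, with 9 of 18 genes (50%, interval 29.0% to 71.0%). With an overlap of 50% of each peak, the shares were 44.9% for complex I, 50% for II and III, 33.3% for IV, and 47.1% for V. Assembly factors had them in 11 of 12 cases and subunits in 69 of 87. The 8 isoforms listed as tissue restricted (*Cox4i2*, *Cox6a2*, *Cox6b2*, *Cox7a1*, *Cox7b2*, *Cox8b*, *Cox8c*, and *Ndufa4l2*) differed from the rest: 1 of the 8 had peaks of both libraries, against 80 of the other 92 genes (87.0%). Of the 9 complex IV genes without such peaks, 6 were on that list, and without its 7 isoforms complex IV had 8 of 11 (72.7%).

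Among genes with peaks of both libraries, OXPHOS genes did not stand apart in peak strength. The strongest peak near the 81 genes had a median fold enrichment of 16.3 in replicate 2 (lowest 4.83, highest 41.3) and 48.4 in replicate 3 (lowest 19.3, highest 113). The medians of the 9407 other genes with both peaks were 16.3 and 47.3. Ranked within each list, the OXPHOS medians lay at the 74.96th and 91.1st percentile, and those of the other genes at the 74.96th and 90.7th. All 81 peaks exceeded the median of the replicate 3 list (98.9% of other genes with both) and 70 exceeded that of the replicate 2 list (86.4%, other genes 77.1%). The top 10% of the replicate 3 list held 43 of the 81 (53.1%, other genes 52.8%), and the top 10% of the replicate 2 list held 12 (14.8%, other genes 24.6%). The OXPHOS peaks spread less than the others, with an interquartile range of 35.4 to 62.5 in replicate 3 against 29.5 to 72.9. Their median widths were 467 bp in replicate 2 and 917 bp in replicate 3, beside 473 bp and 999 bp. Across genes, Spearman's rho between the enrichments of the libraries was 0.66 across the 81 genes and 0.86 across the 9407, a description over genes that share both libraries and over unequal ranges.

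**Figure D2:**
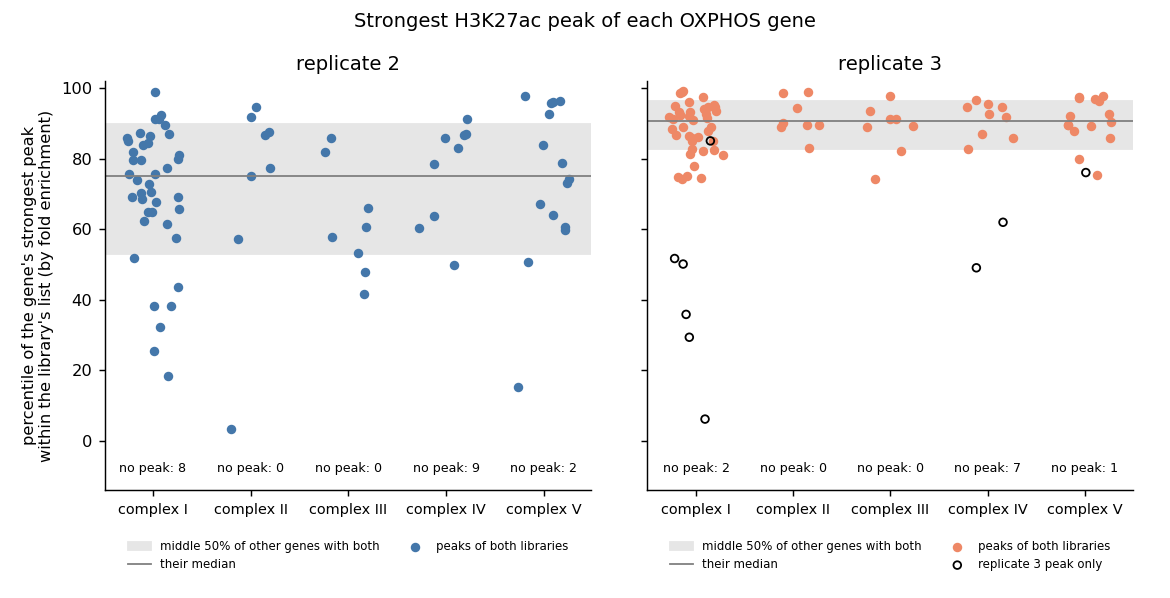
Percentile of each OXPHOS gene's strongest peak within its own library's list, ranked by fold enrichment, by complex, for replicate 2 (left) and replicate 3 (right). Each point is a gene, open points had a replicate 3 peak only, the grey band and line are the middle 50% and median of other genes with both peaks, and genes without a peak are counted below. In replicate 3, all filled points lie at or above the 74.1st percentile.

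In complex I, the NADH dehydrogenase, the strongest replicate 3 peaks belonged to the accessory subunits *Ndufb5* and *Ndufb4*. The *Ndufb5* peaks had fold enrichments of 41.3 in replicate 2 and 113 in replicate 3, the highest of all OXPHOS genes in both libraries, at chr3:32736439-32737149 and chr3:32736272-32737411. *Ndufb4* reached 24.4 and 104. The weakest peaks shared by both libraries were at *Ndufa1*, an accessory subunit gene on the X chromosome (6.78 and 19.5), and *Ndufs4*, an accessory subunit mutated in Leigh syndrome (6.10 and 19.5). The highest and lowest genes thus differed 5.80-fold in replicate 3.

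Core subunits of complex I that the nucleus encodes carry its flavin and iron-sulfur centers. *Ndufv1*, which binds the flavin, had enrichments of 14.8 in replicate 2 and 71.6 in replicate 3. *Ndufv2* had 16.3 and 64.8, and *Ndufs1* had 14.2 and 29.6. *Ndufs8* (25.8 and 48.4), *Ndufs7* (21.0 and 36.0), and *Ndufs3* (7.46 and 23.1) also had peaks of both.

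Some complex I genes had a replicate 3 peak only. For each one described, the share of replicate 3 peaks of like strength (within 10% of its enrichment) that overlapped a replicate 2 peak gives the background. *Ndufc2* had an enrichment of 5.97, where 4.66% of like peaks were shared. *Ndufa4l2*, a hypoxia-induced paralog of *Ndufa4*, had 6.69, where 6.72% were shared, and an end of *Shmt2* lay 31 bp from its own. *Ndufa9* had 8.999 (16.98% shared), and the assembly factor *Ndufaf1* had 9.32 (18.8% shared). These peaks were of a strength that replicate 2 usually lacked.

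*Ndufb8* was different. Its replicate 3 peak, at chr19:44555213-44555703, had an enrichment of 33.5 and lay at the 85.0th percentile, and 98.5% of the 2329 replicate 3 peaks of like strength overlapped a replicate 2 peak. The nearest replicate 2 peak was 7.17 kb away. *Ndufb4b* and *Ndufb4c*, paralogs of *Ndufb4*, had no peak in either library, the nearest being 32.1 kb and 17.4 kb away, in replicate 3. Whether reads that fit more than 1 copy were kept by the authors was not tested.

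Complex II, succinate dehydrogenase, has no subunit encoded by mitochondrial DNA, and all of its genes had peaks of both libraries. *Sdhb*, the iron-sulfur subunit, had the strongest in replicate 3, with enrichments of 26.4 in replicate 2 (chr4:140961106-140961600) and 101 in replicate 3 (chr4:140960793-140962129). The printed promoter ends inside both peaks. *Sdhaf1*, an assembly factor of that subunit, had 30.1 and 97.1, the strongest of complex II in replicate 2. *Sdha*, the flavoprotein, had 17.1 and 42.2, and *Sdhc*, a membrane anchor, had 22.3 and 30.1, the lowest of complex II in replicate 3.

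*Sdhd*, the other membrane anchor, ranked very differently in the libraries, at the 3.22nd percentile of replicate 2 (enrichment 4.83) and the 89.4th of replicate 3 (43.6). This was the widest gap among the 81 genes. Of 1073 other genes with both peaks and a like replicate 3 enrichment, 4 had a lower one in replicate 2, and their median there was 14.8. The replicate 2 peak, at chr9:50603675-50604147, covered the start of *Sdhd*, and *Timm8b* begins 52 bp away in the opposite direction. *Atp5k*, a small membrane subunit of complex V, came next, at the 15.3rd and 88.0th percentile (6.10 and 39.7), and 13 of 1047 like genes were lower in replicate 2.

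In complex III, the cytochrome *bc1* complex, *Uqcrfs1*, the Rieske iron-sulfur protein, had the strongest peaks, at 21.7 in replicate 2 and 85.0 in replicate 3. *Uqcrq* had 13.4 and 57.3. *Uqcrb* had 8.68 and 28.7. *Uqcrh*, the hinge protein, had the lowest replicate 3 fold enrichment of all 81 genes (19.3) and 19.5 in replicate 2, where 478 of 482 genes with a like replicate 3 enrichment were lower. Ranked by −log10 p, however, its replicate 3 peak lay at the 83.8th percentile, above those of *Ndufs4* (72.8) and *Ndufa1* (74.0). *Cyc1*, the cytochrome of this complex, which the symbol rule does not include, had 11.5 and 29.8, and the electron carrier *Cycs* had 42.7 and 142, above every OXPHOS gene of the rule in both libraries.

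In complex IV, cytochrome *c* oxidase, *Cox5b* had 25.8 in replicate 2 and 76.3 in replicate 3, and *Cox4i1*, the widely expressed isoform of subunit 4, had 22.4 and 68.7. The lowest of the shared peaks were those of *Cox6c* (11.8 and 29.3) and *Cox7a1* (9.76 and 34.8). Most narrowly expressed paralogs lacked the peaks that their widely expressed partners had. *Cox4i2*, the lung and hypoxia isoform, had no peak in either library, and the nearest replicate 3 peak was 1.44 kb away. *Cox6a1* had 21.7 and 63.5, whereas *Cox6a2*, the heart and skeletal muscle isoform, had none, the nearest being 30.7 kb away. *Cox6b1* had 17.7 and 54.4, whereas the testis isoform *Cox6b2* had none, the nearest being 11.1 kb away.

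*Cox8a* had 12.8 and 62.7. Neither *Cox8b*, the heart and muscle isoform, nor *Cox8c*, a testis isoform, had a peak, the nearest being 2.82 kb and 20.5 kb away. *Cox7b2*, also of testis, was 611 kb from the nearest peak, while *Cox7b* had a replicate 3 peak only (8.79, 49.0th percentile, 16.3% of like peaks shared). *Ndufa4*, which is now placed in complex IV, had 20.9 and 52.1, against the single weak peak of *Ndufa4l2*. The exception was *Cox7a1*, the heart and muscle isoform, which had peaks of both libraries at its 5′ end, with summits at -106 bp and -78 bp from that end (negative being upstream). *Cox7a2l* had 19.7 and 37.7.

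**Figure D3:**
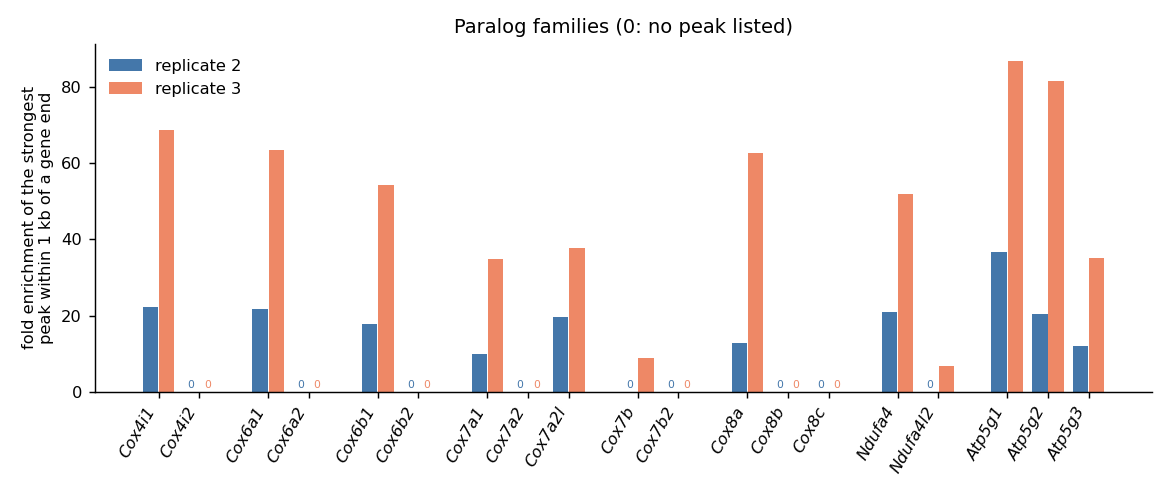
Fold enrichment of the strongest peak within 1 kb of a gene end for paralog families of complexes I, IV, and V, with blue bars for replicate 2 and orange bars for replicate 3, and 0 where no peak was listed. The narrowly expressed isoforms have no bars except *Cox7a1* (9.76 and 34.8) and *Ndufa4l2* (6.69 in replicate 3), and *Cox7a2* has none at its gene ends.

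The gaps at 3 ubiquitously expressed genes came with the choice of gene ends. *Cox7a2* and *Atp5d* had no peak within 1 kb of the ends in the gene table, and *Cox5a* a weak replicate 3 peak only (12.4). At the start sites listed in the promoter table, 11569, 3577, and 3904 bp from those ends, all 3 genes had peaks of both libraries. These had enrichments of 25.1 and 73.3 at *Cox7a2* (chr9:79759529-79760019 in replicate 2), 19.7 and 34.1 at *Atp5d* (chr10:80142115-80142444), and 18.3 and 47.8 at *Cox5a* (chr9:57520785-57521405). Counting these sites as well as gene ends, 84 of 100 OXPHOS genes had peaks of both libraries, against 46.3% of all genes, and the widely expressed complex IV genes lacking them came down to *Cox7b*.

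In complex V, the ATP synthase, *Atp5g1* had the strongest replicate 3 peak (36.6 in replicate 2 and 87.0 in replicate 3), at chr11:96075559-96076146 and chr11:96075235-96076275. It is one of 3 genes for the same c-ring protein. Of the others, *Atp5g2* had 20.3 and 81.7, and *Atp5g3* 12.1 and 35.2, so the order was the same in both libraries. In the F1 head, *Atp5c1*, the gamma subunit, had 33.2 and 84.0, and *Atp5b*, the catalytic beta subunit, had 31.9 and 44.0. *Atp5a1*, the alpha subunit, was the weakest of complex V in replicate 3, at 10.2 and 20.4. *Atp5l*, a membrane subunit, had 12.8 and 25.7. The only complex V gene with a replicate 3 peak alone was *Atp5j2* (21.1), a strength at which 82.9% of like peaks were shared.

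The peaks sat at the start of the genes, as at most other genes. Of 69 OXPHOS genes with both peaks and a known strand, 66 had them at the 5′ end only (95.7%), 3 at both ends (4.35%), and 0 at the 3′ end only. Of 7658 other genes, 89.8% had them at the 5′ end only, 6.80% at both ends, and 3.37% at the 3′ end only. The listed start site itself lay under a peak at 72 of 82 genes in replicate 2 (87.8%) and 78 of 82 in replicate 3 (95.1%), against 39.2% and 48.9% of other genes. The summit lay at a median of -50 bp from the start in replicate 2 and -45.5 bp in replicate 3, negative values being upstream, and at -49 and -46 bp for other genes. It was upstream of the start in 59 of 72 and 61 of 78 cases, and downstream in 18.1% and 21.8%, against 28.3% and 27.2% of other genes. Of the positions 200 to 500 bp from the start, replicate 2 peaks covered a mean of 26.0% upstream and 12.2% downstream, and replicate 3 peaks 61.8% and 66.3%. For other genes, counted with or without a peak, these were 14.9% and 11.6% in replicate 2 and 31.5% and 34.9% in replicate 3.

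**Figure D4:**
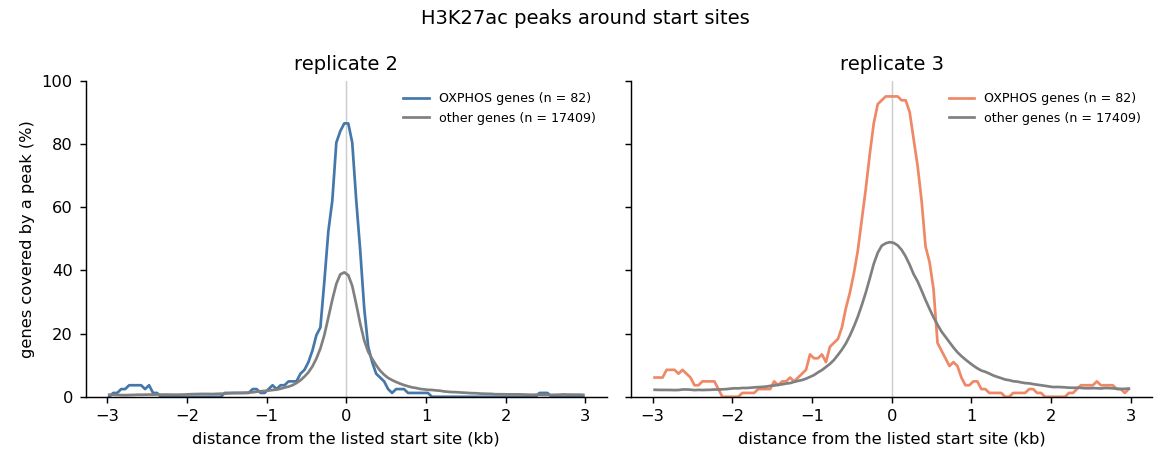
Share of genes (%) covered by a peak in 50-bp bins against the distance from the listed start site (kb), for 82 OXPHOS genes (colored) and 17409 other genes (grey), in replicate 2 (left) and replicate 3 (right). OXPHOS genes reach 86.6% and 95.1%, other genes 39.4% and 49.0%, and the colored curves fall near the grey ones within about 1 kb.

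Many OXPHOS genes lie close to another gene. Another protein-coding gene ended or began within 1 kb of 55 of the 100 genes, against 24.8% of all genes. The closest were *Atp5md* and *Taf5* (8 bp), *Ndufs1* and *Eef1b2* (9 bp), *Ndufv2* and *Ankrd12* (9 bp), *Ndufa7* and *Rps28* (10 bp), *Ndufaf3* and *Impdh2* (10 bp), and *Sdhaf2* and *Cpsf7* (14 bp). A peak there cannot be assigned to either gene. Peaks of both libraries were present at 49 of the 55 genes (89.1%, other genes with a neighbor 68.6%) and at 32 of the 45 genes without a neighbor (71.1%, other such genes 34.9%). The excess over other genes was thus present with and without a neighbor.

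Another gene's start on the opposite strand lay within 1 kb of the start of 28 of 82 OXPHOS genes with a known strand (34.1%). Over all 17491 genes with a known strand, 10.3% had such a partner. Whether the paired starts faced away from each other, as at bidirectional promoters, was not checked. The share was 39.1% for mitochondrial ribosomal, 18.8% for proteasome, and 16.1% for cytosolic ribosomal protein genes. By complex, these were 18 of 42 genes in complex I, 3 of 7 in II, 2 of 5 in III, 0 of 13 in IV, and 5 of 15 in V. All 28 had peaks of both libraries. The share was 69 of 82 for OXPHOS genes with a known strand and 43.4% for all genes. It was 68.6% for other genes with a neighbor of any kind. The share for other genes with an opposite-strand start this close is not given here. The median replicate 3 enrichment of the 28 genes (46.8) was close to that of the 41 other OXPHOS genes with both peaks and a known strand (49.5). The partners included other mitochondrial genes, such as *Mrpl47* beside *Ndufb5* (302 bp) and *Mrpl36* beside *Ndufs6* (21 bp). *Gabpa*, which encodes the ETS factor named above, starts 966 bp from *Atp5j*, and 1 replicate 3 peak (enrichment 79.4, chr16:84834409-84836426) was the strongest for both. Its summit lay 916 bp downstream of the 5′ end of *Atp5j*. The replicate 2 summit lay 870 bp downstream, and that peak stopped 14 bp short of the 5′ end.

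For the motifs, exact letters were searched on both strands from 250 bases before to 50 bases after the listed start of the 82 genes. The NRF1 letters GCATGCGC occurred in 12 promoters (14.6%), against 3.55% of other genes, 6.36% of other genes with both peaks, and 2.73% of all promoters in the table. All 12 genes, *Cox6a1*, *Sdhb*, and *Atp5g2* among them, had peaks of both libraries. So did 69 of all 82 OXPHOS genes searched and 43.4% of all nuclear protein-coding genes. The ETS letters CCGGAAGT occurred in 5 promoters (6.10%), near the 5.27% of other genes, below the 9.77% of those with both peaks, and above the 3.92% of all promoters, and their core CCGGAAG was found in 25.6%, against 11.8% of other genes, 21.0% of those with both peaks, and 8.91% of all promoters. The Sp1 letters GGGGCGGGG occurred in 12 promoters (14.6%), below the 24.3% of other genes with both peaks (15.5% of other genes, 11.5% of all promoters). TGACGTCA, bound by CREB, occurred in 4 (4.88%, against 2.31%, 3.79%, and 1.80%) and CCAATCA, bound by NF-Y, in 7 (8.54%, against 9.59%, 12.1%, and 7.80%).

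**Figure D5:**
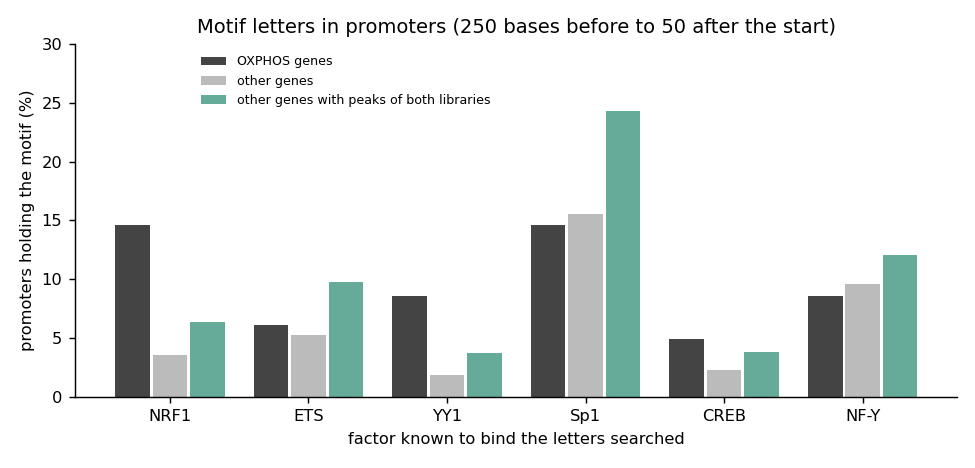
Share of promoters (%) holding the letters of 6 factors, from 250 bases before to 50 after the start, for 82 OXPHOS genes (dark), other genes (light grey), and other genes with peaks of both libraries (green). OXPHOS promoters lie highest for NRF1 (14.6%), YY1 (8.54%), and CREB (4.88%), and below the green bars for ETS, Sp1, and NF-Y.

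The YY1 letters AAGATGGCG were found in 7 OXPHOS promoters (8.54%, against 1.88% of other genes, 3.68% of those with both peaks, and 1.41% of all promoters). They are shown with up to 9 bases on either side, the motif in capitals, because all 7 had the same strand and the same side of the start. The searched letters contain ATG, and whether it is the start codon of these genes was not tested.
Ndufa9 (chr6:126849098-126849124, minus strand): ttgtgggagAAGATGGCGgccgccgtc
Ndufaf8 (chr11:120098935-120098961, plus strand): gcagggcccAAGATGGCGgcgccctcg
Ndufc1 (chr3:51408916-51408942, minus strand): ctgcggaacAAGATGGCGccgtccgta
Ndufs4 (chr13:114388045-114388068, minus strand): gcctacaggAAGATGGCGgcggtc
Ndufs6 (chr13:73328433-73328458, minus strand): gtcaccggcAAGATGGCGgcggtgct
Ndufs7 (chr10:80249464-80249490, plus strand): gccgaggccAAGATGGCGgcgctggcg
Atp5j2 (chr5:145191501-145191527, minus strand): caggacttcAAGATGGCGtcactcggt
The first base of the motif lay 11 bases into the transcript at *Ndufaf8*, the lowest, and 36 bases at *Ndufs4*, the highest, counting the start as 1. None of the 82 genes had the letters in the 250 bases before the start, where 0.678% of other genes had them. In the 50 bases after it the shares were 8.54% and 1.18%. Complex I, with 42 of the 82 promoters searched, accounted for 6 of the 7. *Ndufaf8*, *Ndufc1*, *Ndufs4*, *Ndufs6*, and *Ndufs7* had peaks of both libraries, and *Ndufa9* and *Atp5j2* a replicate 3 peak only.

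The promoters of OXPHOS genes had a median GC content of 58.5%, between other genes (56.3%) and other genes with both peaks (61.7%). Their observed to expected CpG ratio was 0.831 at the median, near that of other genes with both peaks (0.803) and above that of all other genes (0.575). The 69 OXPHOS genes with both peaks at their gene ends had a median of 0.855 and the 13 without had 0.584. The 13 included *Cox7a2* (0.833), *Atp5d* (0.696), and *Cox5a* (1.14), which had peaks of both libraries at the listed start sites measured here. *Cox8b*, printed above, had 0.115, *Cox8a* 0.842, and *Cox7a1*, the narrowly expressed isoform with peaks of both libraries, 0.333.

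Genes that serve the pathway outside the symbol rule mostly had peaks too. Of 27 assembly factors, 24 had peaks of both libraries (88.9%). The share was 43.4% for all genes, 87.2% for mitochondrial ribosomal, 89.7% for proteasome, and 96.1% for cytosolic ribosomal protein genes. *Uqcc3* (8.60) and *Atpaf1* (4.30), which act in the assembly of complexes III and V, had a replicate 3 peak only, and *Atpaf2* had none. Of 13 regulators of mitochondrial genes, 11 had peaks of both (84.6%). *Ppargc1a*, the coactivator of mitochondrial biogenesis, had a weak replicate 3 peak only (4.56), *Gabpb1* had none at its gene ends, and its partner *Gabpa* had 27.5 and 79.4. Of 4 carriers of phosphate and of ADP and ATP, *Slc25a3* (37.3 and 97.1), *Slc25a4* (7.62 and 16.9), and *Slc25a5* (12.2 and 20.2) had peaks of both, and *Slc25a31*, the testis isoform, had none.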

How the data were processed

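H3K27ac peak lists of replicates 2 and 3 were analysed, and the input libraries were not analysed here. The authors deposited 1 list per library, called separately, with each peak's fold enrichment (a ratio), −log10 p-value and −log10 q-value, and a score that rescales the q-value. The deposited −log10 q began at 2.04 (replicate 2) and 2.01 (replicate 3). The submitters' processing notes name cutadapt 0.4.4, BWA 0.7.17, Picard 1.67, MACS2 2.0.10, bedtools 2.27.1, and build mm10 (GRCm38). The thresholds and the use of inputs are not given in the sources used here. Read depth is unknown.

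Gene ends and promoters were those of RefSeq GRCm38.p6. Peaks counted within 1 kb of either gene end and as shared from 1 bp of overlap. Strand, known through the promoter table, was available for 82 genes. A peak's percentile is its rank by fold enrichment within its own list. The Wilson intervals (95%) cover the counting of genes only. With 2 libraries that no label sets apart by condition, and no replicate numbers that mark animals, no test was made.

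Genes named were those without peaks of both libraries, except for 1 gene that is counted but not reported here, the 2 strongest and 2 weakest of each complex in replicate 3, the paralog families, *Sdha* to *Sdhd*, the closest neighbors, and examples of the pathway lists. The complex I core subunits, *Atp5k*, *Atp5b*, *Atp5j*, the other opposite-strand pairs, and the genes of the motif paragraphs were named after their values were seen. Members and lists were chosen with earlier results of these data known. The overlap step was tested on simulated data. Software versions were pandas 2.3.3, numpy 2.4.6, and scipy 1.17.1 under Python 3.11.15, with figures from matplotlib 3.10.9.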

Additional observations from a re-analysis of the deposited data

How the results depend on the processing

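No paired analysis was possible because no label sets the H3K27ac libraries apart by condition, and their inputs, which carry the same numbers, were not used here. Of 66 alternatives to 15 results, 44 left the value within its counting interval or within the spread between the libraries, and 22 moved it. The interval is wider for small groups, so this tally depends on group size. With 18 genes (complex IV), a change from 50% to 33.3% counted as no move. With 21783 other genes, a change from 43.2% to 42.0% counted as a move. The share of OXPHOS genes with overlapping peaks of both libraries (81.0%) became 44.0% with a reciprocal overlap of 50%, 71.1% among genes without a neighboring gene end, 87.8% with listed start sites in place of gene ends (chosen after seeing the data), and 81.0% to 90% with 1 library left out. The share of other genes (43.2%) became 47.1% and 40.8% with windows of 2.5 and 0.5 kb, 42.0% at a q-value of 1e-05, 42.3% with the same number of strongest peaks, 21.9% with the reciprocal overlap, 42.5% at the 5′ end only, 34.9% without neighbors, 45.4% with listed start sites, and 43.2% to 53.7% with 1 library left out. OXPHOS genes stayed above other genes in each of these settings. Where 1 library was left out, no overlap was required, and the values are shares of genes with a peak of the other library. The reciprocal overlap also moved complex I to 44.9%, complexes II and III to 50%, and complex V to 47.1%, while complex IV, at 33.3%, stayed within its interval. Replicate 3 peaks at OXPHOS genes were wider (median 917 bp against 467 bp), and the cause was not tested. With 1 library left out, complex I ranged from 83.7% to 95.9%. Motif shares moved with the core letters to 25.6% (ETS), 47.6% (Sp1), and 42.7% (NF-Y), and to 0% for YY1 in the 250 bases before the start. The missing read depth limits every count that needs both libraries.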
